A study of Homo sapiens with 6 samples.

Results

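The genes described here are 10 members of the YAP/TAZ pathway: the co-activators YAP1 and WWTR1 (whose protein is TAZ), the DNA-binding partners TEAD1 and TEAD4, and 6 genes known as transcriptional targets, CCN1, CCN2, ANKRD1, AXL, AMOTL2 and LATS2. They were chosen by name as pathway factors and targets, with earlier results of these data known. They are 10 of the 58288 gene identifiers in the count table. CCN1 and CCN2 stand there under identifiers whose older symbols are CYR61 and CTGF. The cells were T24, a human bladder cancer line, transiently transfected with a lipid reagent. The libraries are labelled siControl (called NC in the count table), siRNA1 (si-circ235-1) and siRNA2 (si-circ235-2), with 2 biological replicates each and 6 libraries in all. The siRNA names were matched to the labels by their numbers. Both siRNAs were designed against the back-splice junction of circ235, a circular RNA, and all libraries came from 1 cell line. RNA was enriched with oligo dT, which does not capture circles, so circ235 was not measured and its knockdown in these libraries was not checked.

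YAP and TAZ are transcriptional co-activators that do not bind DNA themselves. They act in the nucleus through the TEAD transcription factors. The Hippo kinases MST1/2 (genes STK4 and STK3) and LATS1/2 hold them in check, since YAP and TAZ phosphorylated by LATS are kept in the cytoplasm or degraded. Activity of the pathway is set largely by phosphorylation and location of the proteins, which mRNA counts do not report. Some targets, among them LATS2 and AMOTL2, encode inhibitors of YAP and form a negative feedback. In bladder epithelium and its cancers the pathway is known for its ties to growth and cell contact.

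TEAD proteins recognise the motif CATTCC. It was searched on both strands of the RefSeq promoter windows (GRCh38.p14, 250 bases before to 50 after a start site), which hold 10 promoters of 7 of the 10 genes. The motif lay in 6 of these 10 promoters and in 6 of the 7 genes, and WWTR1 was the one without it. Of all 35116 promoters 14% held it, and of 15262 promoters of tested genes 11.4%. The windows below show 1 match per gene for 5 of the genes, with the motif or its reverse complement in capitals and each sequence on the strand of its gene. A match is a run of letters and not a measured binding site.
YAP1 (chr11:102110273-102110302, + strand): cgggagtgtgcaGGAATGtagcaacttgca
CCN2 (chr6:131951524-131951553, - strand): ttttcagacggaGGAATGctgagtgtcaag
ANKRD1 (chr10:90921198-90921227, - strand): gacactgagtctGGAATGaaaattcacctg
AXL (chr19:41226531-41226560, + strand): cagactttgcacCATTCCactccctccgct
AMOTL2 (chr3:134374499-134374528, - strand): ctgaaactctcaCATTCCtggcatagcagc
The CCN2 promoter held 3 matches and the ANKRD1 promoter 2. The matches of AXL and AMOTL2 lay in only 1 of the 2 promoters listed for each.

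The study examined miR-330-5p as a microRNA bound by circ235, so its seed was also looked for in these genes. Its mature sequence is given with nucleotides 2 to 8 in capitals, and the matching word in a 3′ UTR is CCCAGAG.
miR-330-5p: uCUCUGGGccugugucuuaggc
TEAD1 3′ UTR (chr11:12939956-12939977, + strand, GRCh38): actaaagaagccttCCCAGAGc
TEAD1 was the 1 gene of the 10 whose 3′ UTR held this word, against 20.5% of 12146 tested genes. The TEAD1 3′ UTR is also the longest of the 10, at 7261 nucleotides.

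The libraries held 15373992 to 19912893 counts, and replicates differed by more than sampling noise. Genes were tested with the quasi-likelihood test of edgeR, and a gene is referred to as called where its Benjamini-Hochberg adjusted p over the 14415 genes tested was under 0.05. All 10 genes passed the filter on low counts. Levels are CPM, counts scaled to a common library total with TMM factors. Marker genes were checked against the label. KRT7, KRT8, KRT18 and CD44 gave the epithelial signal, a sum over 7 markers of 4050 to 6300 CPM, while EPCAM was at 1.28 to 2.93 CPM and KRT19 and CDH1 at or near 0. Of the 7 urothelial differentiation markers UPK3A and KRT20 were at 0 throughout, and the sum of 25.3 to 54.3 CPM was mostly PPARG. The 4 leukocyte markers were at 0, and the summed endothelial and fibroblast markers did not exceed 2.62 and 1.47 CPM.

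The 10 genes did not move as a block, and the 2 siRNAs gave different patterns. With si-circ235-2, 5 genes rose (YAP1, TEAD1, CCN1, AMOTL2 and LATS2) and 1 fell (TEAD4), against 31.4% of all genes called in that comparison (15.7% higher and 15.7% lower). With si-circ235-1 none of the 10 was called, against 5.88% of all genes (2.24% higher and 3.64% lower), and 4 had an unadjusted p under 0.05 by edgeR (TEAD4, CCN1, AMOTL2 and LATS2). WWTR1, CCN2, ANKRD1 and AXL were called in neither comparison. The median log2 fold change of the 10 was 0.41 with si-circ235-2 and -0.17 with si-circ235-1, beside medians near 0 over all genes tested (-0.0038 and -0.033). Fewer cells of a type and less RNA per cell cannot be told apart in such bulk libraries. Both comparisons share the NC libraries.

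**Figure D1:**
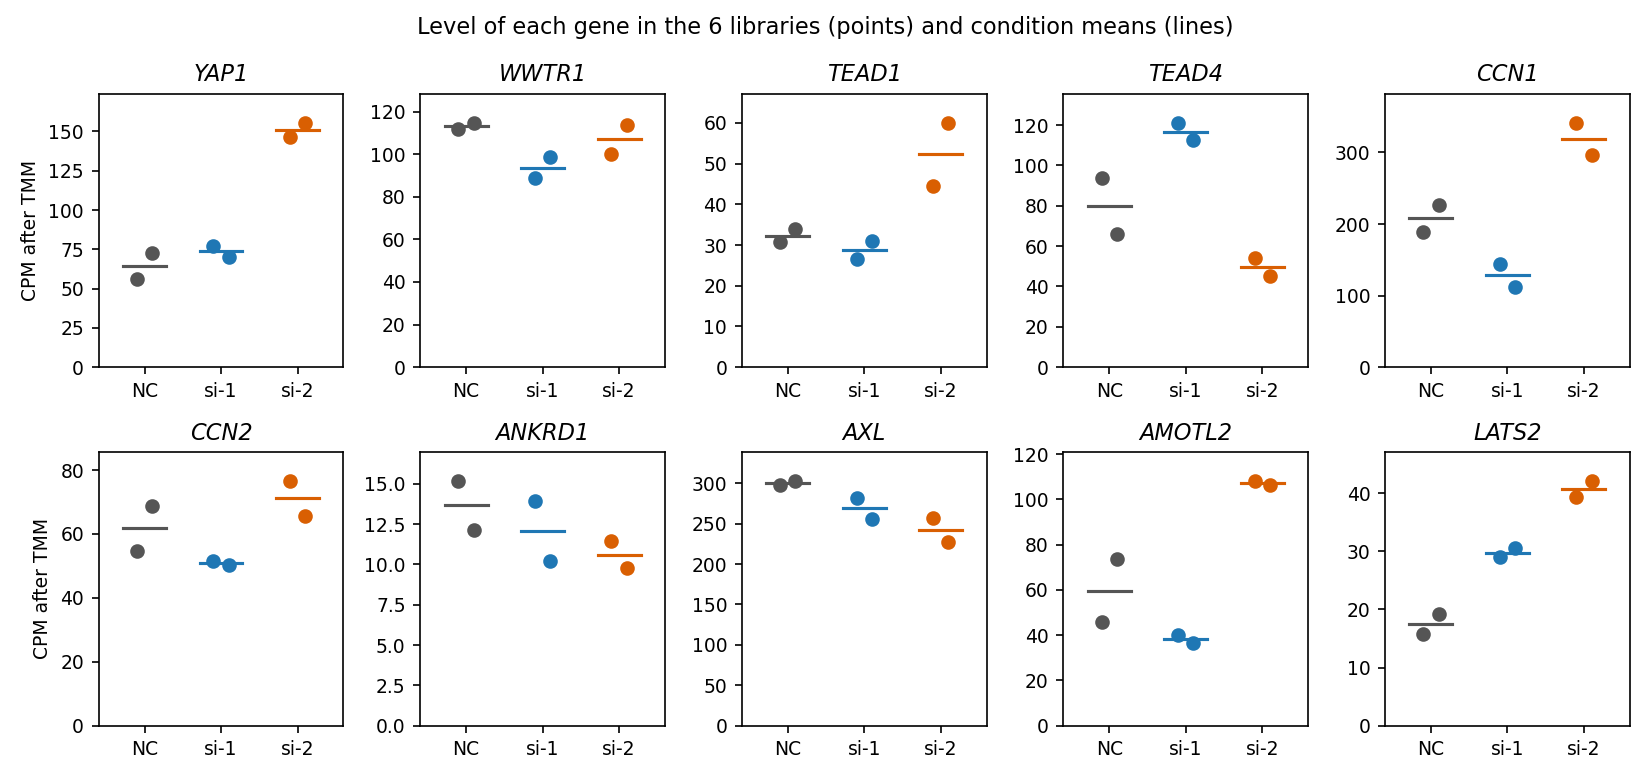
Level of each of the 10 genes (CPM after TMM scaling, axis from 0) in NC, si-circ235-1 (si-1) and si-circ235-2 (si-2), with a point per library and a line at the mean of 2 libraries. YAP1, AMOTL2 and LATS2 were higher in both si-circ235-2 libraries than in every other library, and TEAD4 was lowest there.

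Among the co-activators, YAP1 rose with si-circ235-2 and WWTR1 was not called. YAP1 was at 56.4 and 72.8 CPM in NC, 77.4 and 70.3 in si-circ235-1, and 147 and 155.5 in si-circ235-2. Both si-circ235-2 libraries stood above the other 4, while the si-circ235-1 and NC libraries overlapped. The log2 fold change with si-circ235-2 was 1.23 ± 0.19 (SE), a 2.34-fold rise with a 95% interval of 0.81 to 1.65 (edgeR, adjusted p = 0.0026). With si-circ235-1 it was 0.19 ± 0.19 (edgeR, adjusted p = 0.57), with an interval of -0.22 to 0.61. YAP1 kept its call with si-circ235-2 under all 13 alternative settings, between 0.68 and 1.47.

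WWTR1 was at 112 and 114.7 CPM in NC, 88.6 and 98.6 in si-circ235-1, and 100.2 and 114 in si-circ235-2. Its si-circ235-1 libraries were below NC, and its si-circ235-2 libraries overlapped NC. The log2 fold changes were -0.27 ± 0.17 and -0.08 ± 0.17 (edgeR, adjusted p = 0.36 and 0.76), so a change beyond -0.66 to 0.11 and -0.47 to 0.30 lay outside the 95% intervals. Without TMM factors the si-circ235-2 value was 0.18, and with a smooth trend on transcript length and GC removed it was -0.43 (edgeR, adjusted p = 0.039), a call lower.

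Set on a scale per length (CPM per kb of the longest transcript), YAP1 was below WWTR1 in NC and si-circ235-1 and above it in si-circ235-2. The ratio of YAP1 to WWTR1 was 0.47 and 0.592 in NC, 0.813 and 0.665 in si-circ235-1, and 1.36 and 1.27 in si-circ235-2. Their summed level was 32.7 and 36.3 CPM per kb in NC, 32 and 32.6 in si-circ235-1, and 47.1 and 51.4 in si-circ235-2. The sum was higher in both si-circ235-2 libraries than in the other 4, and the ratio did not overlap between any of the conditions. YAP1 shares 628 exonic nucleotides with an antisense gene (AP000942.2) and WWTR1 795 with WWTR1-AS1, and counting without strand cannot separate them.

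The TEAD genes moved in opposite directions with si-circ235-2. TEAD1 was at 30.8 and 33.9 CPM in NC, 26.7 and 30.9 in si-circ235-1, and 44.6 and 60.0 in si-circ235-2. Both si-circ235-2 libraries were above all others, and the other conditions overlapped. TEAD1 rose by 0.69 ± 0.21 on the log2 scale with si-circ235-2 (edgeR, adjusted p = 0.030), and was at -0.17 ± 0.21 with si-circ235-1 (edgeR, adjusted p = 0.68). The TEAD1 call did not hold without either NC library (0.62 without the first and 0.77 without the second), without si-circ235-2 replicate 2 (0.46), or with the length and GC trend removed (0.14).

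TEAD4 was at 93.7 and 65.8 CPM in NC, 121 and 112 in si-circ235-1, and 54.1 and 45.1 in si-circ235-2. The 3 conditions did not overlap, with si-circ235-1 highest and si-circ235-2 lowest, and the NC replicates lay far apart. TEAD4 fell by 0.68 ± 0.21 on the log2 scale with si-circ235-2 (edgeR, adjusted p = 0.031). With si-circ235-1 the value was 0.55 ± 0.21 (edgeR, adjusted p = 0.13), and TEAD4 was called higher there with the length and GC trend removed, without the replicate block (0.83, edgeR adjusted p = 0.0062) and with it (0.83, edgeR adjusted p = 0.017). The fall against NC lost its call with the trend removed (-0.06), without TMM factors (-0.41), without NC replicate 1 (-0.41) and without si-circ235-2 replicate 2 (-0.56), and in a fit of NC and si-circ235-2 alone (-0.69, edgeR adjusted p = 0.0515).

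TEAD4 was the TEAD gene with the highest level per length in all 6 libraries. It made up 72.4% and 62.4% of the summed TEAD1 to TEAD4 level per length in NC, 78% and 81.5% in si-circ235-1, and 58.2% and 52% in si-circ235-2. TEAD1 made up 4.74% and 6.41%, 3.42% and 4.47%, and 9.57% and 13.8% in the same order. Neither share overlapped between the conditions, and TEAD4 took the most and TEAD1 the least in si-circ235-1. TEAD4 is short and GC-rich (1690 nucleotides, 60.4% GC) and TEAD1 is long and GC-poor (8477 nucleotides, 41.3% GC), and these shares depend on the transcript length taken. They were also taken without removing the length and GC trend. With it removed, the log2 fold changes of TEAD4 and TEAD1 were -0.06 and 0.14 with si-circ235-2, and 0.83 and -0.29 with si-circ235-1.

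**Figure D2:**
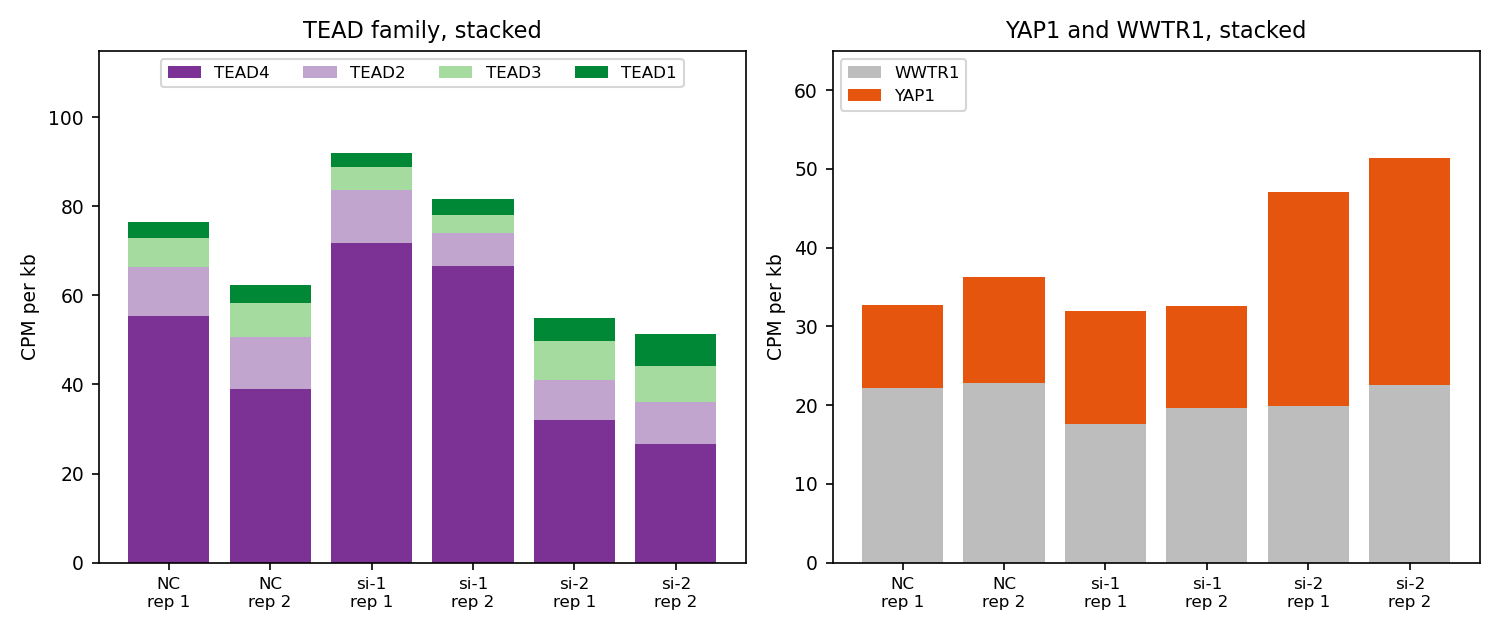
Stacked levels per length (CPM per kb of the longest transcript, bars from 0) in each of the 6 libraries, for TEAD4, TEAD2, TEAD3 and TEAD1 on the left and for WWTR1 and YAP1 on the right. The TEAD4 part was smallest in the si-circ235-2 libraries, where the YAP1 part was largest, and the WWTR1 part stayed between 17.6 and 22.8 CPM per kb. No length and GC trend was removed from these levels.

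Among the secreted target genes, CCN1 rose with si-circ235-2 and CCN2 was called in no comparison. Both encode matricellular proteins and are widely used as readouts of YAP and TEAD. CCN1 was at 188 and 227 CPM in NC, 145 and 112 in si-circ235-1, and 341 and 297 in si-circ235-2. The 3 conditions did not overlap, with si-circ235-1 lowest and si-circ235-2 highest. CCN1 rose by 0.62 ± 0.20 on the log2 scale with si-circ235-2 (1.54-fold, edgeR adjusted p = 0.040), a call lost without NC replicate 1 (0.48), si-circ235-1 replicate 1 (0.61), si-circ235-2 replicate 1 (0.51) or si-circ235-2 replicate 2 (0.72). With si-circ235-1 it was at -0.70 ± 0.20 (edgeR, adjusted p = 0.069), and it was called lower there by DESeq2 (adjusted p = 0.028), with no filter on low counts, with the trend removed (-0.61) and in a fit of the 2 conditions alone.

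CCN2 followed the same order with smaller differences. Its level was 54.8 and 68.9 CPM in NC, 51.4 and 50.2 in si-circ235-1, and 76.5 and 65.7 in si-circ235-2. The si-circ235-1 libraries were below both others, and si-circ235-2 overlapped NC. The log2 fold changes against NC were -0.28 ± 0.19 and 0.20 ± 0.19 for si-circ235-1 and si-circ235-2 (edgeR, adjusted p = 0.39 and 0.45). Their 95% intervals were -0.71 to 0.14 and -0.22 to 0.62. CCN2 shares 195 exonic nucleotides with an antisense gene (AL133346.1).

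ANKRD1 and AXL were called in no comparison. ANKRD1 encodes a muscle ankyrin repeat protein, and was at 15.2 and 12.2 CPM in NC, 13.9 and 10.2 in si-circ235-1, and 11.4 and 9.75 in si-circ235-2. The replicates spread about as widely as the conditions, and only si-circ235-2 lay below both NC libraries. Its log2 fold changes were -0.18 ± 0.26 and -0.37 ± 0.26 (edgeR, adjusted p = 0.71 and 0.30).

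AXL encodes a receptor tyrosine kinase. It was at 298 and 302 CPM in NC, 282 and 256 in si-circ235-1, and 257 and 227 in si-circ235-2. All 4 siRNA libraries lay below both NC libraries. The log2 fold changes were -0.16 ± 0.18 and -0.31 ± 0.18 (edgeR, adjusted p = 0.64 and 0.22), and the 95% interval with si-circ235-2 was -0.71 to 0.09. With the length and GC trend removed AXL was called lower with si-circ235-2 (-0.63, edgeR adjusted p = 0.0091).

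The feedback inhibitors AMOTL2 and LATS2 both rose with si-circ235-2. AMOTL2, an angiomotin family protein that binds YAP, was at 45.8 and 73.5 CPM in NC, 40.3 and 36.6 in si-circ235-1, and 108 and 106.5 in si-circ235-2. The conditions did not overlap, and the NC replicates were the farthest apart. AMOTL2 rose by 0.85 ± 0.23 on the log2 scale (1.8-fold, edgeR adjusted p = 0.017), and without NC replicate 1 the value was 0.54 and the call was lost. With si-circ235-1 it was at -0.63 ± 0.23 (edgeR, adjusted p = 0.12). AMOTL2 shares 187 exonic nucleotides with the pseudogene RPL39P5 on its own strand.

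LATS2, a kinase that phosphorylates YAP and TAZ, was the gene of the 10 that lay on the same side of NC with both siRNAs at values over 0.7 on the log2 scale. Its level was 15.7 and 19.2 CPM in NC, 29 and 30.5 in si-circ235-1, and 39.2 and 42.0 in si-circ235-2. The 3 conditions did not overlap, and the gaps between them exceeded the gaps between replicates. LATS2 rose by 1.22 ± 0.21 with si-circ235-2 (2.33-fold, edgeR adjusted p = 0.0031), and kept this call under all 13 alternatives (0.74 to 1.47). With si-circ235-1 it was at 0.77 ± 0.21, just short of the threshold (edgeR, adjusted p = 0.055), and it passed in 8 of the 13 alternatives, DESeq2 among them (adjusted p = 0.011).

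Levels per length were ordered differently in the 3 conditions. In NC the means ran from CCN1 at 90.7 CPM per kb through AXL (63.4), TEAD4 (47.2), CCN2 (26.4), WWTR1 (22.5), AMOTL2 (13.2), YAP1 (12), ANKRD1 (6.9) and TEAD1 (3.82) to LATS2 (3.17). AMOTL2 and YAP1 were the neighbours whose NC libraries overlapped. In si-circ235-1 TEAD4 (69.1) stood above AXL (56.8) and CCN1 (56), whose libraries overlapped each other. In si-circ235-2 CCN1 (139) was followed by AXL (51.1), CCN2 (30.4), TEAD4 (29.4), YAP1 (28), AMOTL2 (23.7) and WWTR1 (21.3), and the libraries of CCN2, TEAD4 and YAP1 overlapped there.

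Counted by libraries that did not overlap, 7 of the 10 genes were apart from NC in si-circ235-1 (5 lower and 2 higher), where 55.0% of all genes did not overlap (28.8% lower and 26.2% higher). In si-circ235-2 8 of the 10 were apart (5 higher and 3 lower), where the share over all genes was 71.4% (36.4% higher and 35.0% lower). Between the siRNAs 7 were higher in si-circ235-2 and 1 was lower, beside 72.1% of all genes (38.4% higher and 33.7% lower).

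**Figure D3:**
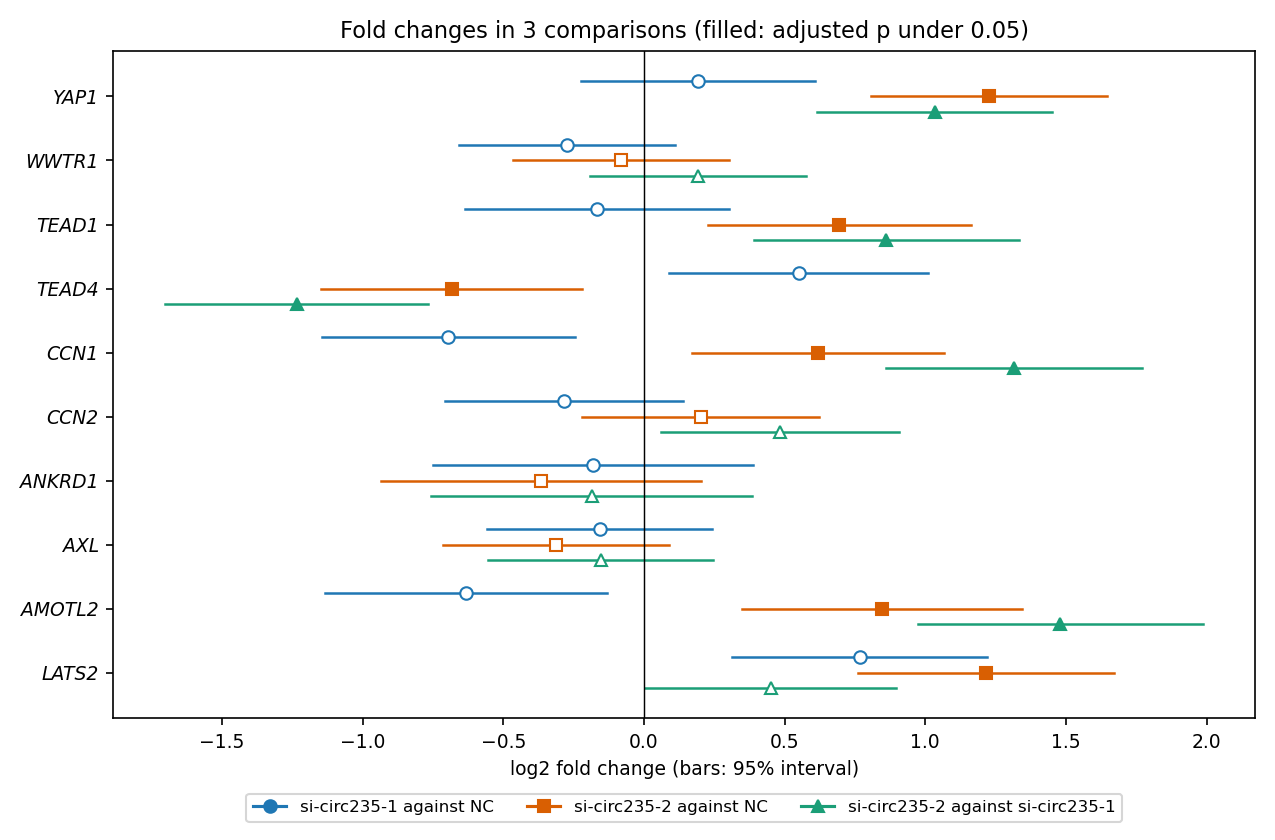
Log2 fold change of each gene (x axis, bars are 95% intervals) for si-circ235-1 against NC, si-circ235-2 against NC and si-circ235-2 against si-circ235-1, filled where the adjusted p was under 0.05. TEAD1, TEAD4, CCN1, CCN2 and AMOTL2 lay on opposite sides of 0 for the 2 siRNAs against NC.

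The siRNAs were also compared with each other, which tests the difference between them directly. Here 4 genes were higher in si-circ235-2 (YAP1, TEAD1, CCN1 and AMOTL2) and TEAD4 was lower, against 39.7% of all genes called (21.1% higher and 18.6% lower). AMOTL2 differed by 1.48 ± 0.23 on the log2 scale, 2.79-fold (edgeR, adjusted p = 0.0011). CCN1 differed by 1.31 ± 0.21 (edgeR, adjusted p = 0.0012) and TEAD4 by -1.23 ± 0.21 (edgeR, adjusted p = 0.0016). YAP1 differed by 1.03 ± 0.19 (edgeR, adjusted p = 0.0022) and TEAD1 by 0.86 ± 0.21 (edgeR, adjusted p = 0.0093). For each of these genes both si-circ235-2 libraries lay on the same side of both si-circ235-1 libraries. YAP1, TEAD4, CCN1 and AMOTL2 kept their calls under all 13 alternatives, and TEAD1 lost its call without si-circ235-1 replicate 1 (0.76), without si-circ235-2 replicate 2 (0.63) and in the block fit with the trend removed (0.42).

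CCN2 was at 0.48 ± 0.19 between the siRNAs (edgeR, adjusted p = 0.066), and LATS2 at 0.45 ± 0.20 (edgeR, adjusted p = 0.099). Without TMM factors both were called higher, CCN2 at 0.82 and LATS2 at 0.79 (edgeR, adjusted p = 0.0125 and 0.022), and CCN2 was also called in a fit of the 2 conditions alone (0.50, edgeR adjusted p = 0.034). The LATS2 value turned to -0.15 with the trend removed. WWTR1 (0.19), ANKRD1 (-0.19) and AXL (-0.15) were not called. Their 95% intervals were -0.19 to 0.58, -0.76 to 0.38 and -0.56 to 0.25. AXL was called lower with the trend removed (-0.66, edgeR adjusted p = 0.0034).

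**Figure D4:**
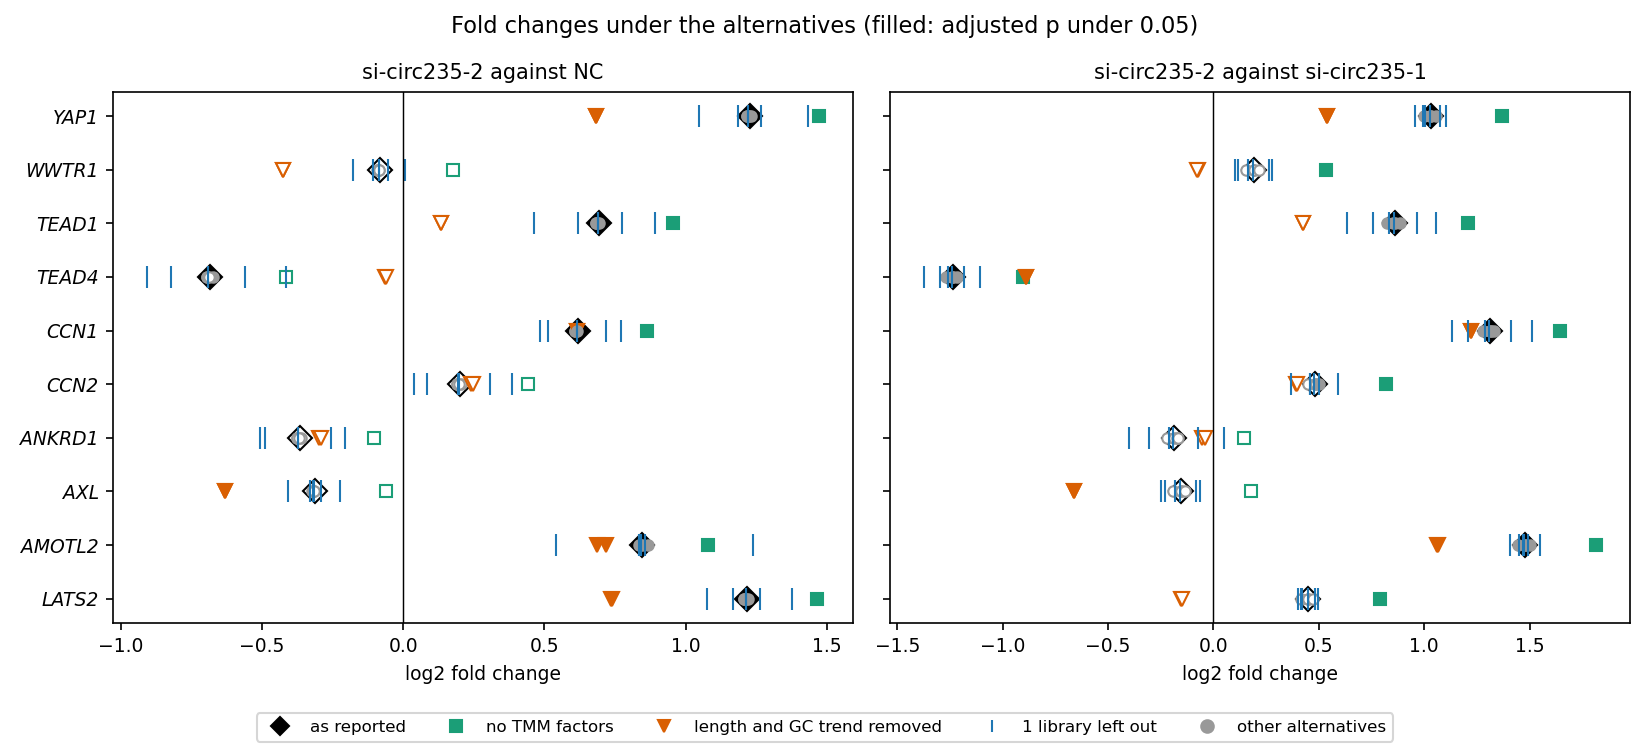
Log2 fold changes of the 10 genes for si-circ235-2 against NC (left) and against si-circ235-1 (right), as reported and under the alternative settings, filled where the adjusted p was under 0.05. Removing the length and GC trend moved YAP1, TEAD1 and LATS2 down and TEAD4 up, and YAP1 stayed above 0 and called in both comparisons.

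Taken as 1 group of 4 libraries against NC, the siRNAs gave no call among the 10 genes, and 0% of all 14415 genes were called by edgeR (DESeq2 called 160, and 1379 had an unadjusted p under 0.05 in edgeR). LATS2 was at 1.01 ± 0.27 (edgeR, adjusted p = 0.47, unadjusted p = 0.0058), with all 4 siRNA libraries above both NC libraries, and it was called by DESeq2 (adjusted p = 0.038). AXL was lower in all 4 (-0.23 ± 0.23). Over all genes 22.8% had the 4 siRNA libraries apart from NC (11.6% higher and 11.3% lower). YAP1 was at 0.80 ± 0.40, and its si-circ235-1 and NC libraries overlapped. The fit of 2 groups treats the siRNAs as replicates, so the difference between them enters its spread. In a fit with 1 mean per condition, the mean of both siRNAs called YAP1 and LATS2 higher, and 1407 of all genes were called.

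Of the 19 genes in a list of Hippo kinases and upstream regulators, 10 rose and 1 fell with si-circ235-2, and none was called with si-circ235-1 (4 at an unadjusted p under 0.05 by edgeR). Of all genes tested 15.7% were called higher and 15.7% lower with si-circ235-2, and 5.88% were called with si-circ235-1. The median log2 fold change was 0.81 with si-circ235-2 and 0.24 with si-circ235-1. WWC2, a relative of the scaffold KIBRA, rose by 1.47 ± 0.25, STK4 (MST1) by 1.36 ± 0.19, the upstream kinase TAOK3 by 1.17 ± 0.26 and the angiomotin AMOT by 1.14 ± 0.29 (edgeR, adjusted p = 0.0031, 0.0019, 0.0081 and 0.015). WTIP, an Ajuba family LIM protein, was the 1 that fell (-0.75 ± 0.22, edgeR adjusted p = 0.024).

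The other LATS kinase gene, LATS1, was at 9.77 and 12.53 CPM in NC, 7.7 and 8.04 in si-circ235-1, and 19.94 and 24.5 in si-circ235-2. It was the lowest in si-circ235-1 and the highest in si-circ235-2 with no overlap, so that it stood on opposite sides of NC where LATS2 did not. LATS1 rose with si-circ235-2 (0.99 ± 0.24, edgeR adjusted p = 0.012), was at -0.50 ± 0.25 with si-circ235-1 (edgeR, adjusted p = 0.23), and differed between the siRNAs by 1.5 ± 0.25 (edgeR, adjusted p = 0.0014). NF2 (merlin, an upstream activator of the kinases) was at -0.20 and 0.08 against NC and was not called. Between the siRNAs 7 of the 19 were higher in si-circ235-2 and 1 lower, against 21.1% higher and 18.6% lower over all genes. Among the called genes LATS1, WWC2 (1.32), STK4 (0.89) and TAOK3 (0.88) were the farthest apart. With the trend removed the median with si-circ235-2 was 0.12, with 7 called higher and 2 lower (1613 and 2111 of 14386 genes over all). Between the siRNAs it was then -0.0082, with 4 called higher and 6 lower (2469 and 3343 over all genes). Fewer of the list were called with si-circ235-2 without NC replicate 1, and between the siRNAs without either si-circ235-1 library. These fits have 1 library in a group, and calls over all genes fell in them too. STK4 and WWC2 kept their calls with si-circ235-2 under all 13 alternatives, and LATS1 its call between the siRNAs. Against NC, AMOT lost its call with the trend removed and without NC replicate 1. WTIP lost its call against NC without TMM factors, NC replicate 1 or si-circ235-2 replicate 2. LATS1 and TAOK3 lost theirs against NC without NC replicate 1 and in the block fit with the trend removed. Between the siRNAs TAOK3 lost its call with the trend removed, with and without the block, and without either si-circ235-1 library. WTIP lost its call there without TMM factors, si-circ235-1 replicate 1 or si-circ235-2 replicate 2. STK4 lost its call there in the block fit with the trend removed.

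In the list of other TEAD genes and VGLL cofactors, 4 of 5 genes were tested. VGLL4, which competes with YAP for TEADs, rose with both siRNAs. It was at 7.87 and 9.84 CPM in NC, 21 and 19.7 in si-circ235-1, and 15.2 and 16 in si-circ235-2, so that all siRNA libraries were above NC. Its log2 fold changes were 1.2 ± 0.23 and 0.82 ± 0.23 (edgeR, adjusted p = 0.019 and 0.023). The call with si-circ235-1 was lost when any 1 of the NC or si-circ235-1 libraries was left out (1.05 to 1.41 over all alternatives). That with si-circ235-2 was lost with the trend removed, without NC replicate 1 and without si-circ235-2 replicate 2 (0.56 to 1.06). The fits with a library left out have 1 library in a group, and calls over all genes fell in them too. TEAD2 (-0.21 and -0.30), TEAD3 (-0.66 and 0.23) and VGLL3 (0.34 and 0.54) were not called against NC. TEAD3 was higher in si-circ235-2 than in si-circ235-1 (0.89 ± 0.23, edgeR adjusted p = 0.012), a call lost without si-circ235-1 replicate 2.

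A list of 20 further YAP/TAZ target genes had 18 tested. With si-circ235-2 9 of them rose and none fell, with a median of 0.69, against 15.7% called higher and 15.7% lower over all genes. PTPN14 (1.36 ± 0.18), a phosphatase that binds YAP, DOCK5 (1.21 ± 0.22), TGFB2 (1.11 ± 0.32) and the tissue factor gene F3 (0.98 ± 0.31) led those with a mean of at least 5 CPM (edgeR, adjusted p = 0.0018, 0.0039, 0.025 and 0.034). PTPN14 was at 68.5 and 77.6 CPM in NC, 63.4 and 54.4 in si-circ235-1, and 182 and 192 in si-circ235-2. Its si-circ235-2 libraries stood far above the other 4. PTPN14 kept its call under all 13 alternatives, DOCK5 lost it with the trend removed, and DOCK5, TGFB2 and F3 lost theirs without NC replicate 1. TGFB2 also lost its call without si-circ235-2 replicate 2. F3 kept its call in 8 of the 13 alternatives, and lost it also in a fit of the 2 conditions alone and without either si-circ235-1 library or si-circ235-2 replicate 2 (0.59 to 1.53 over all alternatives). With the trend removed 6 of the list rose and 1 fell (median 0.36), against 1613 higher and 2111 lower of 14386 genes. Without NC replicate 1 fewer of the list were called, as over all genes.

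With si-circ235-1 the same list was split, with 2 genes called in each direction and a median of 0.11, against 2.24% called higher and 3.64% lower over all genes. F3 rose by 1.44 ± 0.31 and ASAP1 by 1.10 ± 0.20, while FJX1 fell by 0.89 ± 0.19 and the kinase gene NUAK2 fell by 0.73 ± 0.18 (edgeR, adjusted p = 0.028, 0.015, 0.025 and 0.040). Of these 4 calls 0 were left without NC replicate 1 or si-circ235-1 replicate 2, 2 without NC replicate 2 and 1 without si-circ235-1 replicate 1. The F3 call was also lost without TMM factors. NUAK2 lost its call with the length and GC trend removed, without and with the replicate block. FJX1 lost its call with the block and the trend removed together. Between the siRNAs 10 were higher in si-circ235-2 and ASAP1 was lower, against 21.1% higher and 18.6% lower over all genes. Fewer of the list were called without si-circ235-1 replicate 2, as over all genes. PTPN14 (1.67), CRIM1 (1.15) and DOCK5 (1.01) were among those farthest apart.

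**Figure D5:**
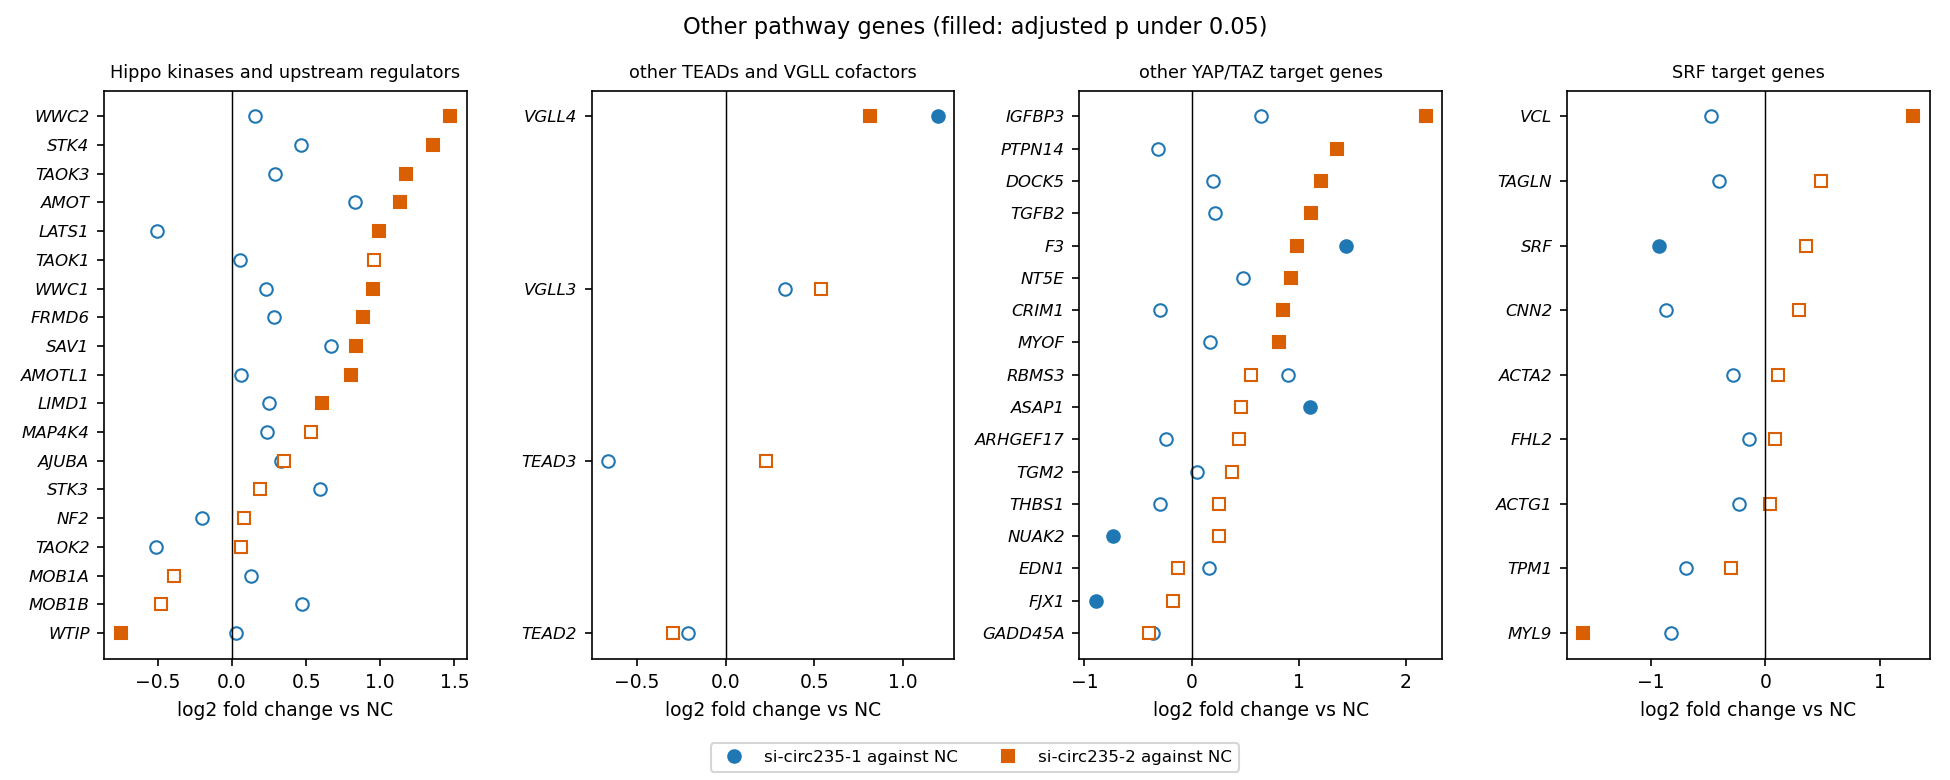
Log2 fold change against NC (x axis) of the tested genes of 4 pathway lists (1 target gene is not drawn), for si-circ235-1 (circles) and si-circ235-2 (squares), filled where the adjusted p was under 0.05. Of the tested genes, 16 of 19 regulators and 15 of 18 further targets were above 0 with si-circ235-2. With si-circ235-1 these were 16 of 19 and 10 of 18. Medians over all genes tested were -0.0038 with si-circ235-2 and -0.033 with si-circ235-1. No length and GC trend was removed here, and with it removed the medians of both lists with si-circ235-2 were lower. VGLL4 and F3 were filled for both siRNAs.

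Over the 6 libraries, CCN1 and AMOTL2 had a Pearson r of log2 CPM of 0.963, CCN2 and AMOTL2 0.939, and TEAD4 and AMOTL2 -0.979. These values describe libraries in 3 conditions and carry no test. Among 10368 genes with a mean of at least 5 CPM, those most like CCN2 were MAU2 (0.995), TCTN3 (0.991) and ALPK2 (0.984), and 49 genes had r over 0.95. Those most like YAP1 were CMIP (0.999), UBE4A (0.999) and SMC1A (0.999), and 670 genes had r over 0.95.

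Some marker levels differed between the conditions too. The summed epithelial markers were at 6300 and 4680 CPM in NC, 5190 and 4900 in si-circ235-1, and 4810 and 4050 in si-circ235-2. Both siRNAs overlapped NC in this sum. The mesenchymal markers VIM and CDH2 summed to 850 and 669, 1180 and 1500, and 662 and 507 CPM in the same order, nearly all of it VIM. The 2 genes did not move together with si-circ235-2, where VIM was at -0.39 ± 0.24 on the log2 scale (edgeR, adjusted p = 0.24) and CDH2 rose by 0.90 ± 0.27 (edgeR, adjusted p = 0.027). With si-circ235-1 VIM was at 0.82 ± 0.24 and CDH2 at 0.04 ± 0.28 (edgeR, adjusted p = 0.069 and 0.95). The summed urothelial markers were at 26.5 and 25.3 CPM in NC, 42.1 and 50.2 in si-circ235-1, and 53.8 and 54.3 in si-circ235-2. PPARG, which made up most of that sum, rose by 0.90 ± 0.19 with si-circ235-1 and by 1.13 ± 0.19 with si-circ235-2 (edgeR, adjusted p = 0.026 and 0.0031). Of the 5 epithelial markers tested, 1 was called with si-circ235-2, KRT7, which was lower (-0.76 ± 0.22, edgeR adjusted p = 0.026). With si-circ235-1 0 were called. Over all genes 31.4% and 5.88% were called. In si-circ235-2 against si-circ235-1, KRT18 was lower (-1.10 ± 0.26, edgeR adjusted p = 0.0080) and CD44 higher (0.80 ± 0.21, edgeR adjusted p = 0.011). The part of all these markers in the results for the 10 genes was not tested.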

How the data were processed

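For the 6 T24 libraries the authors deposited raw counts, whole numbers per Ensembl identifier (58288 rows) with no scaling applied. The submitters' processing notes name FastQC, cutadapt, STAR and hg38. How reads were assigned to genes, and with which annotation, is not given in the sources used here. Gene symbols, transcript lengths, GC content and UTR bounds were taken from GENCODE release 29 on GRCh38, where 99.5% of identifiers matched. Strand was not recorded, so overlapping genes cannot be separated.

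Differential expression was tested with the quasi-likelihood method of edgeR 4.0.16 under R 4.3.3. Low counts were removed by filterByExpr on condition, TMM factors were used, and 1 mean per condition was fitted over 6 libraries. P-values were adjusted by Benjamini-Hochberg over 14415 genes with a threshold of 0.05. The siRNAs as 1 group were tested in a fit of 2 groups. Standard errors and 95% intervals came from the same fits. Correlations used log2 CPM with a prior count of 2. Depth was 15373992 to 19912893 counts, and with 2 libraries per condition the number of libraries limits the precision.

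The members, gene lists and tests were chosen with earlier results of these data known. Named genes were all members, up to 4 called genes per list and comparison with the largest change and a mean of at least 5 CPM, and always TEAD2, TEAD3, VGLL3, VGLL4, LATS1 and NF2. WTIP, and between the siRNAs ASAP1 and MYL9, were named after their values were seen, as the single lower gene of a list. The changes of the markers VIM, CDH2, PPARG, KRT7, KRT18 and CD44 were also given after their values were seen. In the list of further targets 1 gene is counted in it but not reported here by name. The settings varied were the tool (DESeq2 1.42.0), the TMM factors, the filter, a replicate block, removal of a spline trend over length and GC (5 degrees of freedom each) with and without the block, fits of 2 conditions alone, the mean of both siRNAs, and each library left out.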

Additional observations from a re-analysis of the deposited data

Results flagged for a closer look

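For 5 of the 10 genes the effects of the 2 siRNAs, which were designed against the same junction, differed by the direct test between them in edgeR. YAP1 was higher with si-circ235-2 by 1.03 on the log2 scale (adjusted p = 0.0022), TEAD1 by 0.86 (edgeR, adjusted p = 0.0093), CCN1 by 1.31 (edgeR, adjusted p = 0.0012) and AMOTL2 by 1.48 (edgeR, adjusted p = 0.0011). TEAD4 was lower by edgeR (-1.23, adjusted p = 0.0016). In both libraries of each siRNA the direction was the same. Of all genes tested 39.7% differed between the siRNAs.
Genes named from the pathway lists that also differed in this test were LATS1 (1.5), STK4 (0.89), TAOK3 (0.88), WWC2 (1.32), WTIP (-0.78), TEAD3 (0.89), ASAP1 (-0.64), CRIM1 (1.15), DOCK5 (1.01), PTPN14 (1.67), CNN2 (1.16), MYL9 (-0.76), SRF (1.29), TAGLN (0.88) and VCL (1.77), as log2 differences of si-circ235-2 from si-circ235-1.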

How the results depend on the processing

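With si-circ235-1 against NC, where 0 of the 10 genes were called, 2 were called by DESeq2, 2 with no filter and 1 with the replicate block. Over all genes these settings called 1519, 1678 and 937, against 847 in the main fit. With the length and GC trend removed 3 of the 10 were called, 2 with the block too, and 2 in the fit of 2 conditions alone. Over all genes these called 1966, 1293 and 1642. With si-circ235-2 against NC, where 6 were called, fewer were called without NC replicate 1 or si-circ235-2 replicate 2, as over all genes. Between the siRNAs, where 5 were called, 8 were called without TMM factors (6030 over all genes, against 5725). The number there was the same or lower with a library left out, a fit with 1 library in a group. With both siRNAs as 1 group, where 0 were called, 1 was called by DESeq2 and 2 in the mean of both siRNAs (160 and 1407 over all genes). Deviations of replicate 1 from its condition mean correlated weakly between the conditions (-0.094, 0.149 and 0.139). The labels do not say whether the replicate numbers pair the samples, and these values cannot settle it. The replicate block alone moved the count over all genes from 847 to 937, 4530 to 4750 and 5725 to 6043.

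Values changed direction as follows, all on the log2 scale and none of them called in the main comparison. With si-circ235-1, ANKRD1 ranged from -0.42 to 0.0297 with a library left out (0.0297 without si-circ235-1 replicate 2), and AXL was 0.0308 with the trend removed and 0.0313 with the block too. With si-circ235-2, WWTR1 was 0.18 without TMM factors and 0.0050 without si-circ235-2 replicate 1. Between the siRNAs, WWTR1 was -0.0742 and -0.0771 and LATS2 -0.15 and -0.15 with the trend removed, without and with the block. ANKRD1 was 0.15 and AXL 0.18 without TMM factors, and ANKRD1 ranged from -0.40 to 0.0511 with a library left out (0.0511 without si-circ235-1 replicate 1). With both siRNAs as 1 group, TEAD1 was -0.0603 and -0.0605 with the trend removed, without and with the block, TEAD4 was -0.0669 in the mean of both siRNAs and -0.18 to 0.34 with a library left out (-0.1421 without NC replicate 2, -0.1811 and -0.1208 without si-circ235-1 replicates 1 and 2), CCN1 was -0.0381 in that mean and -0.1724 to 0.33 with a library left out (-0.1724 and -0.0601 when si-circ235-2 replicate 1 or 2 was dropped, -0.0267 when NC replicate 1 was), CCN2 was 0.0901 without TMM factors, 0.0556 and 0.0637 with the trend removed, and up to 0.1764 with a library left out (without NC replicate 2, and 0.0481 without si-circ235-1 replicate 1, 0.0585 without si-circ235-1 replicate 2), and AMOTL2 ranged from -0.0165 without NC replicate 1 to 0.69 without NC replicate 2. The cause was not tested.

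Over all genes, the 847 calls of si-circ235-1 became 1519 by DESeq2, 1678 with no filter, 1966 with the trend removed, 1293 with the block too, 1642 in 2 conditions alone, 74 and 134 without NC replicate 1 or 2, 423 and 0 without si-circ235-1 replicate 1 or 2 (2110 at an unadjusted p under 0.05 by edgeR in the last), and 1425 and 1482 without si-circ235-2 replicate 1 or 2. The 4530 calls of si-circ235-2 became 769 without NC replicate 1, and the 5725 between the siRNAs became 2817 without si-circ235-1 replicate 2. With both siRNAs as 1 group 160 were called by DESeq2, 4 with no filter and 1407 in the mean of both siRNAs. Without TMM factors the median of all genes shifted to -0.11, 0.25 and 0.37, and calls split into 3173 higher and 1294 lower with si-circ235-2 (2270 and 2260 with TMM) and 4534 and 1496 between the siRNAs (3047 and 2678). With the trend removed they split into 1188 and 778 with si-circ235-1 (323 and 524), 1613 and 2111 with si-circ235-2, and 2469 and 3343 between the siRNAs.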

Other observations

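Target genes of SRF, a factor whose targets overlap in part with those of YAP, were also counted. Of 10 genes 9 were tested, and 1 was called with si-circ235-1 and 2 with si-circ235-2, against 5.88% and 31.4% of all genes. With si-circ235-1 the median log2 fold change was -0.48 and SRF itself fell by 0.93 ± 0.19 (edgeR, adjusted p = 0.022). With si-circ235-2 the median was 0.11, the focal adhesion gene VCL rose by 1.29 ± 0.21 and the myosin light chain gene MYL9 fell by 1.59 ± 0.28 (edgeR, adjusted p = 0.0027 and 0.0035). VCL was at 209 and 288 CPM in NC, 180.5 and 177 in si-circ235-1, and 601.5 and 613 in si-circ235-2. Between the siRNAs 4 of the 9 were higher in si-circ235-2, VCL by 1.77, SRF by 1.29, CNN2 by 1.16 and TAGLN by 0.88, and MYL9 was lower by edgeR (-0.76, adjusted p = 0.047). Over all genes 21.1% were higher and 18.6% lower in that comparison. CNN2, TAGLN and MYL9 lost their calls between the siRNAs without si-circ235-1 replicate 2, where calls over all genes fell too. MYL9 kept its call there in 9 of the 13 alternatives. The fall of SRF with si-circ235-1 lost its call when any 1 of the NC or si-circ235-1 libraries was left out. Its value ran from -1.07 to -0.61 over all alternatives, and calls over all genes fell in those fits too. VCL and MYL9 kept their calls with si-circ235-2 under all 13 alternatives.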
